A study of Schizosaccharomyces pombe with 2 samples.

Results

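The genes described here are 10 genes of sterol synthesis in fission yeast (Schizosaccharomyces pombe): erg9, erg1, erg7, erg11, erg24, erg25, erg6, erg2, erg31 and erg32. They were chosen by their standard names because their enzymes make squalene (erg9) or act between squalene and ergosterol. They are 10 of 5113 protein-coding genes in the tables. Wild-type cells of strain FWP9, growing exponentially at 30 °C in the rich medium YPD, gave 2 libraries, called A and B after their replicate letters. Poly(A) sites were mapped by 3' READS, a sequencing method in which each read marks the last templated base of a polyadenylated transcript, so that read numbers per gene count transcript ends and do not scale with transcript length. There is 1 group and no treated sample, and the labels do not say whether the libraries came from separate cultures, so the SD between them may be technical.

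Ergosterol is the main sterol of fungal membranes, with a role like that of cholesterol in animals. Its synthesis starts when squalene synthase joins molecules of farnesyl diphosphate. Squalene is then epoxidised and closed to the first sterol, lanosterol, which is trimmed, reduced and rearranged at the endoplasmic reticulum. Several of these steps use molecular oxygen, and enzymes of the pathway are the targets of antifungal drugs. In fission yeast the transcription factor Sre1 raises many of these genes when sterols or oxygen run low. A transcript may end at several poly(A) sites after its stop codon, and the choice sets the length of the 3' untranslated region (UTR).

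Of the 10 genes, 9 had at least 50 reads in each library within the 400 nt after the stop codon and are called measured below. The exception was erg31, with 13 reads in replicate A and 7 in replicate B. Over all genes the windows held 50975501 reads in A and 54747675 in B, and the median of the 3818 measured genes was 655 reads in A and 548.5 in B. The 10 sterol genes together took 0.0620% of the reads in A and 0.0520% in B.

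The sequences that end at the most used sites show where transcripts were cut. Each line gives 30 bases of the sense strand, 5′ to 3′, from the RefSeq assembly ASM294v3, whose stop codons for these genes lie at the coordinates given in the tables. The last base is the most used position of an end cluster (a run of positions that each hold at least 1% of the reads and lie at most 24 nt apart), except for erg7, where the stretch starts at the motif and stops short of the site. Capitals mark a hexamer of the poly(A) signal family, which here means AATAAA and the 18 hexamers that differ from it by 1 base, where one lies wholly 10 to 40 nt upstream of the site. Where a site has several, 1 is marked.
erg9, site at 65 nt (chrII:930995-931024, minus strand): atcgatAATATAcaagcagtttatttcctt
erg1, site at 250 nt (chrII:894273-894302, plus strand): ttgccgttttaaTATAAAatactttttttt
erg7, before the site at 55 nt (chrI:2292757-2292786, minus strand): AAAAAAgcgttagttttaaagttggattta
erg11, near site at 149 nt (chrI:574986-575015, minus strand): cgAATAACcatgaaatttgctagacatttt
erg11, far site at 353 nt (chrI:574782-574811, minus strand): tattatagttttAATAACgtcgggacgctc
erg24, site at 83 nt (chrII:4251395-4251424, plus strand): atAAAAAAtattacgacgcttctcatttgt
erg25, site at 348 nt (chrI:359712-359741, minus strand): attctttaatatcAAAAAAttttgtcgttc
erg6, near site at 119 nt (chrII:1925212-1925241, plus strand): gctccatccAATACAaggtatatgaattct
erg6, far site at 217 nt (chrII:1925310-1925339, plus strand): cttatggttaatctaagttatacacagctc
erg2, near site at 178 nt (chrI:1410298-1410327, minus strand): aacttcaatttatttgatatacgtttctgc
erg2, far site at 355 nt (chrI:1410121-1410150, minus strand): cactttaaAATGAAtgacttaaaaacgttg
erg32, far site at 291 nt (chrII:1324184-1324213, minus strand): tttttgatagaaAATTAAcgctttaaaaat

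AATAAA itself lay upstream of the most used position in 0 of the 9 measured sterol genes, against 20.6% of the 3818 measured genes. With single-base variants included, on the sense strand only, 7 of the 9 had a match, against 71.3% of measured genes. The count was 8 with the most used positions of B alone, where that of erg6 is 119, and 6 with a stretch of 10 to 30 nt. No all-gene share is given for either of these settings, so the 8 and the 6 cannot be set against the 71.3%. The matches were AATATA in erg9, TATAAA and AATATA in erg1, AAAAAA in erg7 and erg25, AATAAC in erg11, GATAAA and AAAAAA in erg24 and AATTAA in erg32. The sites of erg6 at 217 nt and erg2 at 178 nt had none in that stretch, while the other cluster of each of these genes did (AATACA in erg6, AATGAA in erg2). The smaller clusters of erg25 (peak at 318 nt) and erg32 (peaks at 197 and 237 nt), whose sequences are not printed above, had none either. AATAAA itself preceded minor sites of the genes erg11, at 400 nt (0.487% of the reads in A and 1.79% in B), and erg2, at 391 nt (1.57% and 0.476%). A and T made up between 66.7% (erg6) and 83.3% (erg1 and erg32) of the 30 bases up to the most used position, around the median of 76.7% over all measured genes.

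The 9 genes fell on either side of the typical position. The read-weighted mean position had a median of 218 nt over the sterol genes, against 143 nt over all measured genes. This excess of 74.9 nt was 36.25 nt when the median position of a gene's reads replaced the mean. By mean position, 6 of the 9 lay above the all-gene median in both replicates, against 47.5% of measured genes. Of them, erg25 and erg32 were at or above the 75th percentile of all measured genes in both replicates (2 of 9, against 22.9% of measured genes). That count was 4 of 9 with positions 1 to 300, against 22.2% of genes measured under that setting. With at least 200 reads it was 4 of 9, against 23.7%. It was 4 of 7, against 23.15%, with annotated ends within 400 nt, which leaves out erg11 and erg25. It was 3 of 10 with a minimum of 1 read, against 21.5%, and 3 of 9 without replicate B. With median positions or without replicate A it stayed at 2 of 9. The shortest, erg7, erg9 and erg24, had means of at most 83.9 nt, and the other 6 had means of at least 208 nt. No mean position of a sterol gene lay in the 124 nt in between, which holds 46.6% of the measured genes. This stretch was picked as the widest gap between adjacent sterol genes by mean position. By the median position of their reads, erg11 (173 nt in A, 165 nt in B) and erg2 (178 nt in both) lay inside it. Between neighbours in this order the replicates stood apart except for erg2 and erg1, and for erg1 and erg11, whose means differed by 4.50 and 3.34 nt, less than the larger SD of each pair (5.82 and 6.04 nt). With 9 genes, chosen for their function, these counts are a description and no test was made.

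**Figure D1:**
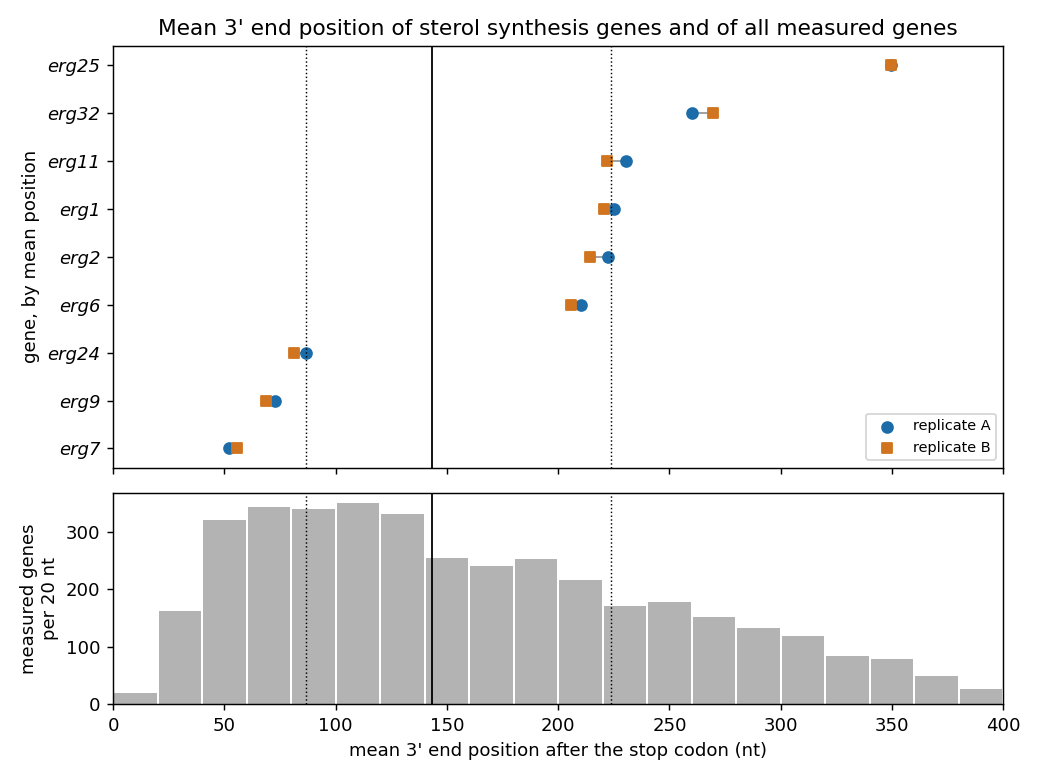
Upper panel: mean 3' end position after the stop codon (nt) of 9 sterol genes in replicate A (circles) and replicate B (squares). Lower panel: number of measured genes per 20 nt of mean position; solid line, median of all measured genes (143 nt), dotted lines, 25th and 75th percentiles (86.5 and 224 nt). The genes erg7, erg9 and erg24 lie below the median and the other 6 above it, and the replicates of each gene lie within 9.53 nt of each other.

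Transcripts of the first enzymes of the route differed in where they ended. Squalene synthase, which commits farnesyl diphosphate to sterols, is encoded by erg9 (SPBC646.05c; chromosome II, minus strand, stop codon ending at 931060). It had 5260 reads in A and 4078 in B, with mean positions of 72.6 nt in A and 68.7 nt in B (70.7 ± 2.75 nt, SD, n = 2). Position 65 alone took 73.3% of its reads in A and 65.7% in B. The annotated 3' end of erg9 lies 58 nt after the stop codon, so 84.1% of the reads in A and 77.6% in B ended past it. Squalene epoxidase, the target of terbinafine, is encoded by erg1 (SPBC713.12; chromosome II, plus strand, stop at 894052), which had 1348 and 1159 reads and ended much farther out, at 225 nt in A and 221 nt in B (223 ± 3.11 nt). Its reads formed a single cluster from 187 to 266 nt, with 95.9% of the reads in A and 92.1% in B. Inside that cluster they were shared between positions 250 (38.0% in A, 28.3% in B), 211 (20.3% and 22.5%) and 208 (5.56% and 12.7%). Lanosterol synthase, which closes the rings, is encoded by erg7 (SPAC13G7.01c; chromosome I, minus strand, stop at 2292801). It had 1520 and 1243 reads and the shortest 3' ends of the 9 genes, at 52.0 nt in A and 55.4 nt in B (53.7 ± 2.39 nt), with 60.0% and 71.1% of the reads at position 55. The annotated end of erg7 lies at 165 nt, and no more than 3.94% of its reads in either library lay past 100 nt.

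Removal of the methyl groups of lanosterol involves erg11, erg24 and erg25. The sterol demethylase of the cytochrome P450 family, the target of azole drugs, is encoded by erg11 (SPAC13A11.02c; chromosome I, minus strand, stop at 575135), and its transcripts came in a short and a long form. It had 4097 reads in A and 3021 in B. The near cluster, from 142 to 200 nt, took 59.8% of the reads in A (95% Wilson interval 58.3% to 61.3%) and 58.6% in B (56.8% to 60.3%). The far cluster, from 351 to 365 nt, took 34.6% (33.1% to 36.1%) and 27.6% (26.1% to 29.3%). The mean positions of 230 nt in A and 222 nt in B (226 ± 6.04 nt) fall between the clusters, where no other cluster held 5% of the reads. In the annotation erg11 ends at 483 nt, outside the 400 nt counted, so any longer form is not counted here. The reductase that acts next is encoded by erg24 (SPBC16G5.18; chromosome II, plus strand, stop at 4251341). With 1416 and 1782 reads it ended at 86.7 nt in A and 81.1 nt in B (83.9 ± 4.004 nt), and 63.6% and 70.9% of its reads lay at position 83, close to its annotated end at 92 nt. A sterol methyl oxidase, which starts the removal of the remaining paired methyl groups, is encoded by erg25 (SPAC630.08c; chromosome I, minus strand, stop at 360060). It had 6517 and 6026 reads and the longest 3' ends of the 9, at 349.4 nt in A and 349.5 nt in B (349 ± 0.109 nt), farther out than 97.1% of measured genes. A cluster from 348 to 360 nt took 89.8% of its reads in A and 88.3% in B, and position 318 took 5.59% and 7.93%. Its annotated end, at 422 nt, also lies past the window, although its last read in either library lay at 385 nt.

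The remaining genes act on the side chain and the rings. The sterol methyltransferase gene erg6 (SPBC16E9.05; chromosome II, plus strand, stop at 1925122) was the most read of the 10, with 7690 reads in A and 7710 in B. Its mean position was 210 nt in A and 206 nt in B (208 ± 3.10 nt), and its reads were spread over more sites than those of the other 8: expressed as the number of equally used sites with the same entropy, they amounted to 19.8 ± 0.271 sites (SD, n = 2), against a median of 4.73 over all measured genes. The median measured gene had far fewer reads (655 in A and 548.5 in B), and the number of sites was not compared among genes of like depth. No position of erg6 held more than 15.2% of its reads. The most used one was 217 in A (15.2%, with 14.7% at 119) and 119 in B (13.6%, with 13.3% at 217). As clusters, 119 to 142 nt took 25.8% in A and 27.5% in B, and 217 to 287 nt took 69.1% and 66.8%. The sterol isomerase gene erg2 (SPAC20G8.07c; chromosome I, minus strand, stop at 1410476) had 2614 and 2108 reads and mean positions of 222 nt in A and 214 nt in B (218 ± 5.82 nt). Its near cluster, from 112 to 199 nt, took 67.4% in A and 67.3% in B, and its far cluster, from 331 to 355 nt, took 22.6% (95% Wilson interval 21.0% to 24.2%) and 18.4% (16.8% to 20.1%).

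The last step covered, the introduction of a double bond by a sterol desaturase, has a pair of genes. The encoded proteins, of 300 residues for Erg31 and 329 for Erg32, were identical at 167 of 296 aligned residues (56.4%). Reads came almost only from erg32 (SPBC27B12.03c; chromosome II, minus strand, stop at 1324475), with 1134 in A and 1313 in B, against 13 and 7 from erg31 (SPAC1687.16c; chromosome I, minus strand, stop at 933052). Of the reads of both genes, erg31 had 1.13% in A (95% Wilson interval 0.664% to 1.93%) and 0.530% in B (0.257% to 1.09%). The windows of the pair share no stretch longer than 11 nt and their ORFs none longer than 15 nt. The annotation ends erg31 at 627 nt, outside the window, so longer erg31 transcripts are not counted and the ratio is not one of total transcripts. Within the window its reads lay at 365 nt on average in A and 313 nt in B, with no position shared by both libraries. For erg32 the mean positions were 260 nt in A and 269 nt in B (265 ± 6.74 nt). Clusters from 174 to 205, 237 to 252 and 277 to 312 nt took 20.3%, 10.8% and 64.3% of its reads in A, and 12.6%, 17.2% and 68.5% in B. Position 291 held 54.7% and 46.9%, 9 nt past the annotated end at 282 nt.

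**Figure D2:**
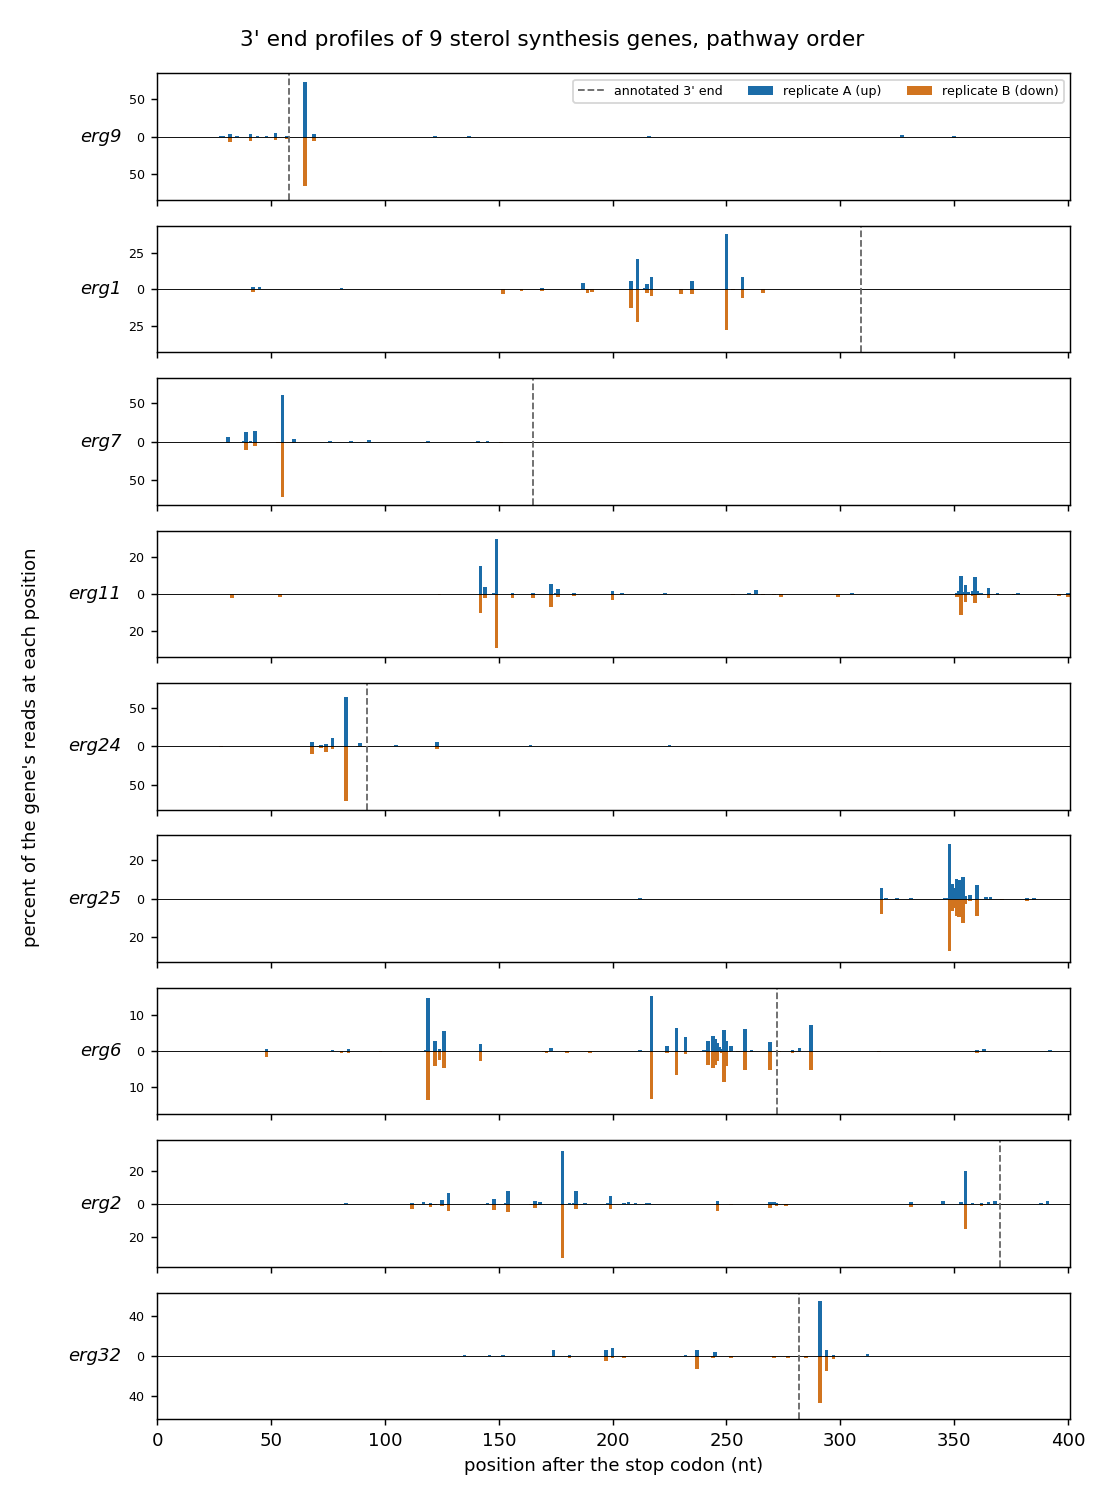
Percent of a gene's reads at each position after the stop codon (nt) for the 9 measured sterol genes in pathway order, replicate A upward and replicate B downward; dashed line, annotated 3' end where it lies within 400 nt. The genes erg9, erg7 and erg24 each have a dominant site near the stop codon, and erg11, erg6 and erg2 have separate near and far groups of sites.

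By the cluster rule, 5 of the 9 genes (erg11, erg25, erg6, erg2 and erg32) had at least 2 clusters with at least 5% of the reads in both replicates, against 48.5% of measured genes. The other 4, erg9, erg1, erg7 and erg24, kept over 90% of their reads in 1 cluster in both libraries. Of the 15 clusters, the Wilson intervals of A and B overlapped for 7 and lay apart for 8. Clusters of other measured genes were not compared in this way, so whether 8 of 15 is many was not tested. The far forms of erg11 and erg2 had larger shares in A, whereas in erg32 the share of the nearest cluster was larger in A. These intervals cover counting error only, and reads without molecular identifiers are not independent molecules. The cause of the differences between replicates was not tested.

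**Figure D3:**
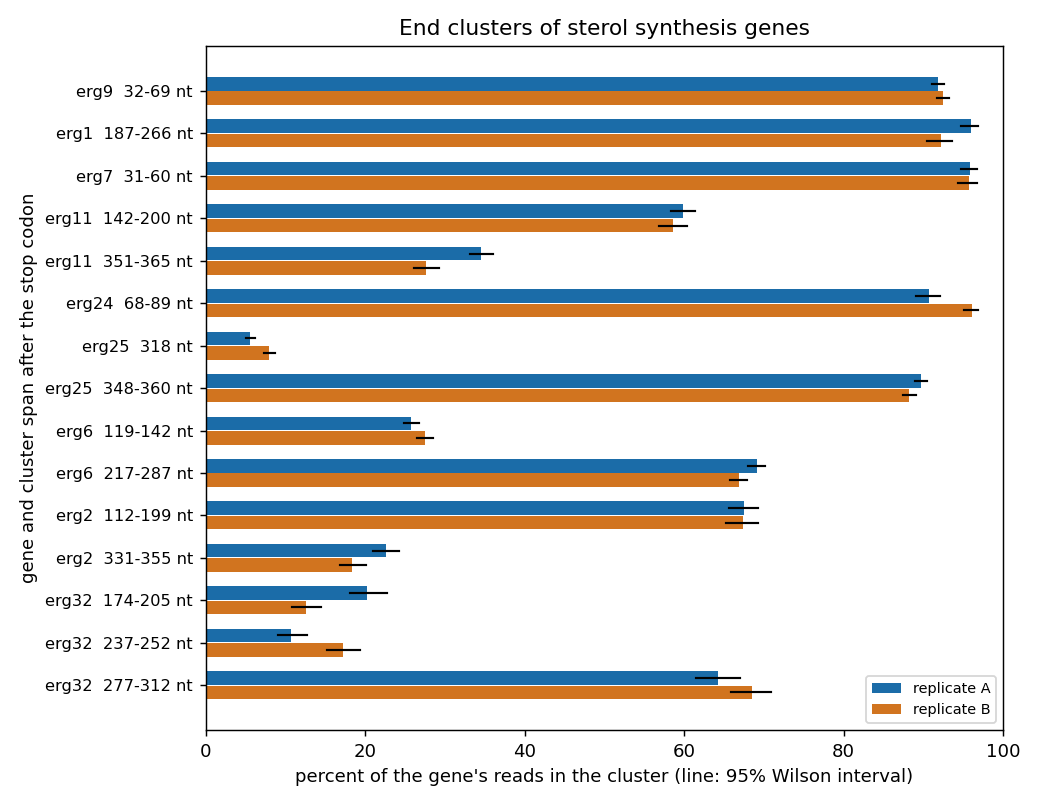
Percent of a gene's reads in each end cluster in replicate A and replicate B, with 95% Wilson intervals for counting error; labels give the gene and the span of the cluster after the stop codon (nt). In erg11 the near cluster holds 59.8% (A) and 58.6% (B) of the reads, and in erg32 the far cluster holds 64.3% and 68.5%.

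The genes also differed in how widely their reads were spread. The width that holds the reads between their 10th and 90th percentiles was 227 nt for erg2 and 217 nt for erg11 in both replicates, 150 nt for erg6 in both, and 110 nt in A and 94 nt in B for erg32. These 4 were wider than the all-gene median in both replicates, 4 of 9 against 42.9% of measured genes. The narrowest was erg25, with 9 nt in A and 12 nt in B, although it has 2 clusters by the rule above, and erg1, with 1 cluster, had 42 nt in A and 61 nt in B. The short genes erg24 and erg7 had 15 and 16 nt in both libraries. The median width of the 9 was 51.5 nt, against 62.5 nt over all measured genes.

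The replicates placed these genes alike to within a few nucleotides. The mean positions in A and B differed by 0.154 nt for erg25 at the least and by 9.53 nt for erg32 at the most, with a median of 4.40 nt. Over the 822 measured genes with between 1134 and 7710 reads in each library the difference had a median of 2.79 nt. Its 10th percentile was 0.301 nt and its 90th 11.97 nt. The A and B profiles of a gene overlapped by 69.0% (erg32) to 91.3% (erg25), with a median of 81.7%, against 85.6% for those genes of like depth.

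By level, the 9 measured sterol genes were above the middle of the range, and erg31, with 0.255 RPM in A and 0.128 RPM in B, was far below it. RPM are reads per 1000000 reads of all windows. On this scale erg6 had 151 in A and 141 in B, erg25 128 and 110, erg9 103 and 74.5, erg11 80.4 and 55.2, and erg2 51.3 and 38.5. The lower ones were erg24 with 27.8 and 32.5, erg7 with 29.8 and 22.7, erg1 with 26.4 and 21.2, and erg32 with 22.2 and 23.98. All 9 exceeded the all-gene medians of 12.8 in A and 10.02 in B, with erg32 above 65.8% and erg6 above 89.6% of measured genes. The level in B over that in A had a median of 0.801 over the 9 genes and 0.808 over all measured genes, and erg24 and erg32 were the members with higher values in B. In the 9 measured genes, reads inside the ORF numbered 0 to 49 per gene and library. They made up at most 0.562% of ORF and window reads in A (erg24) and 1.74% in B (erg7), beside all-gene medians of 0.396% in A and 0.922% in B. The unmeasured erg31 had 5 ORF reads in each library, 27.8% of its few reads in A and 41.7% in B.

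The space between these genes and their neighbours varied. For 6 of the 9 measured genes the next protein-coding gene lies on the opposite strand and points toward them (58.4% of measured genes), and the distance from the stop codon to the coding sequence of the next gene had a median of 564 nt over the 9, against 499 nt over all. The closest neighbour was that of erg9, whose stop codon lies 248 nt from that of pla1, the gene of the poly(A) polymerase. The most used site of erg9 lies 65 nt after its stop codon in both libraries and that of pla1 at 139 nt in A and 149 nt in B, which leaves 43 nt between them in A and 33 nt in B. For erg6 and its neighbour uvi31, whose stop codons are 564 nt apart, the most used sites of both genes differed between the libraries. They lay 81 nt apart in A (217 nt in erg6, 265 nt in uvi31) and 105 nt apart in B (119 and 339 nt). The most used site of erg32 lies 291 nt into the 406 nt that separate it from mis19, whose own most used site lies 19 nt after its stop codon in A and 12 nt in B. In B, 66.8% of the erg6 reads ended in the cluster from 217 to 287 nt, past its most used site there, and uvi31 had only 151 reads in A and 69 in B. With the mean of both profiles, the most used sites of erg6 and uvi31 (217 and 339 nt) left 7 nt between them. In each of the 5 such pairs with both genes measured, the most used sites of a library did not cross, and 33 to 534 nt lay between them. Other ends of these pairs were not compared. Convergent pairs of other measured genes were not examined, so whether this is usual was not tested. The next genes of erg11, erg24 and erg25 lie on the same strand, 764, 566 and 1175 nt away. Annotated 3' ends past the window belong to 2 of the 9 (erg11 and erg25), against 23.2% of measured genes. The window of erg7 also holds a noncoding RNA on the same strand that starts 225 nt after the stop codon, beyond the last read of erg7 at 151 nt.

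Sequence elements that bind regulators of mRNA decay were looked for in the 400 nt after each stop codon, on the sense strand. The AU-rich element TATTTAT occurred in 3 of the 9 windows, against 24.1% of measured genes, at 245 nt in erg9, 343 nt in erg1 and 272 nt in erg2. In erg9 and erg1 it lies past the main cluster. In erg2 it lies between the near cluster, which ends at 199 nt, and the far one, which starts at 331 nt, so transcripts of the near form end before it. TGTANATA, the element of Pumilio family proteins, occurred in erg11 alone (1 of 9, against 12.6%), at 181 nt, within the span of its near cluster. Past 181 nt that cluster had reads only at 183 nt (0.414% in A, 0.894% in B) and 200 nt (1.42% and 3.41%). Most reads of the near form of erg11 thus ended before the element. A match is a description and does not show binding.

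The rest of the pathway was compared through 3 lists. Of the 5 other enzymes after squalene all were measured, with a median position of 233 nt, and 3 lay above the all-gene median in both replicates, against 47.5% of measured genes. Their lowest value was that of erg4, the last reductase of the route (54.3 ± 4.24 nt, SD, n = 2), and their highest that of erg27, a reductase that acts in the same demethylation as Erg25 (270 ± 0.818 nt). The upstream mevalonate pathway had 8 of 9 genes measured, with a median of 122 nt and 3 of the 8 above the all-gene median in both replicates, against the same 47.5%. It ran from the mevalonate kinase gene erg12 (14.1 ± 2.36 nt) to the diphosphomevalonate decarboxylase gene mvd1 (290 ± 9.07 nt). Sterol regulators, among them Sre1 and the Dsc complex, had 8 of 11 measured, with a median of 204 nt and 6 of the 8 above, again against 47.5%. They ran from dsc3 (92.6 ± 2.91 nt) to scp1, the partner of Sre1 that senses sterols (305 ± 0.274 nt). No difference between these lists was tested.

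**Figure D4:**
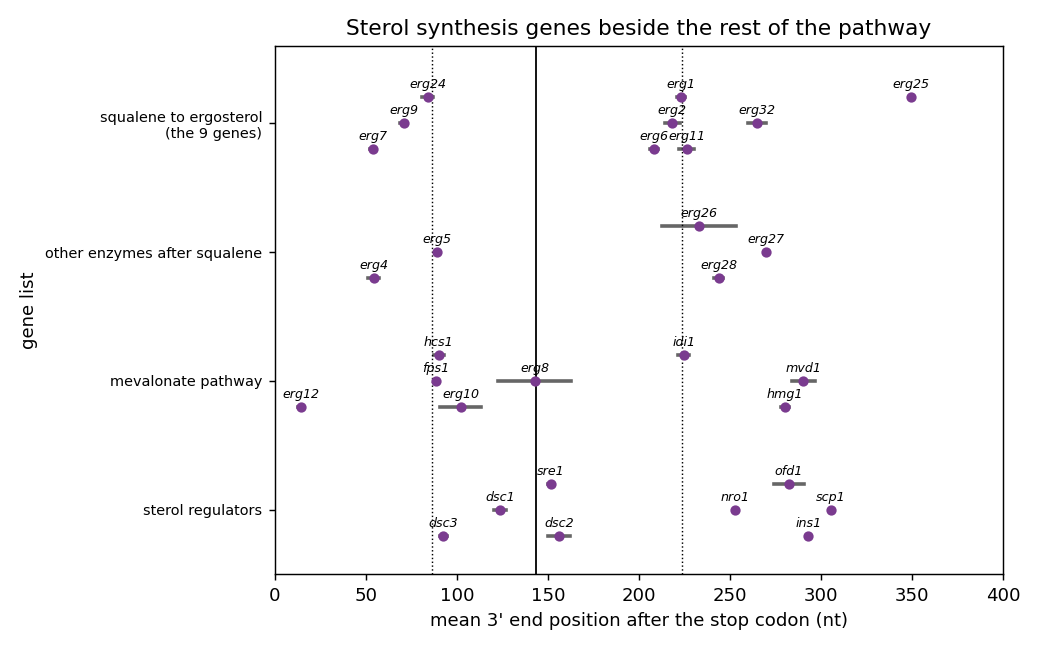
Mean 3' end position after the stop codon (nt) of measured genes in 4 lists: the 9 sterol genes, other enzymes after squalene, the mevalonate pathway and sterol regulators. Points are means of the replicates, bars run between replicates A and B, and lines mark the median (143 nt, solid) and quartiles (86.5 and 224 nt, dotted) of all measured genes; each list spans both sides of the median.

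The profiles of the sterol genes were also compared with each other. In bins of 20 nt, the 36 pairs of measured genes overlapped by a median of 4.63%, from 0% to 58.2% for erg1 and erg6, followed by erg11 and erg2 with 48.6%. Pairs of measured genes in general were not compared, so whether 4.63% is low was not tested. Each had a closer match elsewhere among 1905 other genes with at least 500 reads per library, a far larger choice than the other sterol genes. The best ones were brx1 for erg7 (95.7%, mean of A and B), rns1 for erg25 (91.3%), SPAC823.09c for erg24 (90.4%), cem1 for erg9 (88.0%), prf1 for erg1 (83.5%), sec63 for erg32 (76.2%), SPAC23D3.17 for erg11 (70.4%), pgl1 for erg6 (66.2%) and gmh2 for erg2 (63.1%). These overlaps are maxima over many genes and describe these 2 libraries only.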

How the data were processed

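The 2 libraries of wild-type cells were analysed as 1 group. Reads were aligned with Bowtie, a tool named in the submitters' processing notes; version, settings and treatment of multiply matching reads: not given in the sources used here. Per the file headers, the authors deposited read signal values per gene (window total, highest position, ORF sum), a score for the weighted average position in nt, and each position as a percent of the highest. Low signal values were whole multiples of 0.930 (A) or 0.869 (B), within 0.1 read for 100% of 1210 and 1348 totals up to 100 reads, and all values were divided by that step. The mean positions differed from the deposited averages by at most 0.0487 nt (A) and 0.0950 nt (B). Stop codons of all 5113 protein-coding genes were equal to those of RefSeq assembly ASM294v3, which gave sequences and neighbours; annotated ends are those of the tables.

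Measures were computed with Python 3.11.15, numpy 2.4.6, pandas 2.3.3, statsmodels 0.14.6 (Wilson intervals) and Biopython 1.88 (protein alignment, BLOSUM62), and tested on simulated data. Unless a library is named, most used positions and clusters come from the mean of both profiles. Members and lists were chosen with earlier results of these data known. Named genes are the 10 members, the lowest and highest of each of the 3 lists, the most alike gene per member, and neighbours whose sites are compared. With 1 group of 2 libraries no test was made; values are set beside all measured genes. Alternatives were the read minimum, window, position measure, cluster rule, motif stretch and single libraries.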

Additional observations from a re-analysis of the deposited data

How the results depend on the processing

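The median position of the measured sterol genes exceeded that of all measured genes by 74.9 nt. The excess was 71.2 nt without replicate A and 78.3 nt without replicate B, 78.5 nt at 200 reads or more and 77.9 nt with annotated ends within 400 nt. It shrank to 36.25 nt with median positions, to 44.6 nt with positions 1 to 300 and to 66.9 nt with a minimum of 1 read, where erg31 enters. The count of genes above the all-gene median was 6 of 9 under each setting except a minimum of 1 read (7 of 10) and annotated ends within 400 nt (4 of 7). Over all genes measured under each setting the share ran from 46.1% (a minimum of 1 read) to 50% (single libraries). The count at or above the 75th percentile, 2 of 9 in the main setting, became 4 of 9 with positions 1 to 300 and at 200 reads. It was 4 of 7 with annotated ends within 400 nt, 3 of 9 without replicate B and 3 of 10 with a minimum of 1 read. In the main setting erg1, erg2 and erg11 lay at percentiles 74.6, 73.5 and 75.6. Genes wider than the all-gene median numbered 4 in the main setting and 4 to 6 otherwise. Genes with more than 1 cluster numbered 8 with a gap of 10 nt and 3 with a gap of 40 nt, against 5 in the main setting. AATAAA alone gave 0 matches, against 7 with variants, 6 at 10 to 30 nt and 7 to 8 in single libraries. All-gene shares for these width, cluster and motif counts are given above for the main settings and for AATAAA alone. They are not given for the other settings, so those counts cannot be set against all measured genes. The median level of the 9 genes was 59.6 RPM without the 5 features with most reads, against 44.9, and 38.5 to 51.3 in single libraries. The difference between erg31 and erg32, 74.3 nt, rests on 13 and 7 reads of erg31 and was 43.1 nt in B and 105 nt in A; it could not be computed for positions 1 to 300, where A has no erg31 reads. Where a value moved, the cause was not tested. No paired analysis was possible because there is 1 group. Forms that end past 400 nt are not counted, and depth limits erg31.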

Other observations

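The paired methyl groups of the sterol ring are removed by a complex of Erg25, Erg26, Erg27 and Erg28, and the genes of all 4 lay above the all-gene median position in both replicates, as did 47.5% of all measured genes. The mean positions were 349 ± 0.109 nt for erg25, 270 ± 0.818 nt for erg27, 244 ± 3.56 nt for erg28 and 233 ± 29.0 nt for erg26 (SD, n = 2 each), against a median of 143 nt over all measured genes. The erg26 value is the least certain, with 253 nt in A and 212.5 nt in B from 367 and 322 reads. This group was chosen after its values were seen, and no test was made.

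Grouping by oxygen use was also chosen after the values were seen. The 4 measured genes of enzymes that use molecular oxygen, erg1, erg11, erg25 and erg32, had mean positions from 223 to 349 nt, and the 5 others, erg9, erg7, erg24, erg6 and erg2, from 53.7 to 218 nt. The gap between erg2 and erg1 is 4.50 nt, less than the SD of erg2, and the replicate ranges of this pair overlap. By the median position of the reads the groups interleave: erg11 had 173 nt in A and 165 nt in B, below erg2 (178 nt in both) and erg6 (228 nt in both). Outside the 10 genes, the oxygen-using desaturase gene erg5 ended at 89.2 ± 0.737 nt. The genes erg26, erg27 and erg28, whose products are not known to use oxygen, lay at the 233, 270 and 244 nt given above. These 4 do not share the pattern. The remaining gene of the other enzymes after squalene, the reductase gene erg4, lay at 54.3 ± 4.24 nt, within the range of erg9, erg7, erg24, erg6 and erg2.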
